A study of Homo sapiens with 8 samples.

Results

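The 9 genes described here encode enzymes of the tricarboxylic acid (TCA) cycle: CS, IDH3A, IDH3B, OGDH, DLST, SUCLG1, FH and MDH2, with MDH1, the cytosolic partner of MDH2, counted among them. They were chosen by name as enzymes of the pathway, with earlier results of these data known. All 9 of them were among the 12696 genes tested, out of 45341 gene identifiers shared by the deposited tables. RNA was sequenced from 8 libraries of the MDA-MB-231 line, which was derived long ago from a human breast tumour lacking hormone receptors and is widely used in culture. Cells were given 1-SO or 1-S, compounds known in the labels only by these code names, at 10 µM for 24 h, or 1% DMSO as vehicle. A plate of wells then received UV-A light (325 to 375 nm) for 30 min while its partner plate was kept dark.

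The libraries fall into 6 groups. In round 1, at passage 8, there was 1 library each of 1-SO with UV-A, 1-SO in the dark, vehicle with UV-A and vehicle in the dark. In round 2, at passages 32 to 34, there was 1 library each of 1-S with UV-A, 1-S in the dark, vehicle with UV-A and vehicle in the dark. The vehicle groups therefore hold 2 libraries each and every compound group holds 1 library, with no replicate of its own. Compound, round and passage cannot be told apart, and neither can light and plate. Nothing in the labels says whether wells of a round came from separate cultures, so p-values measure only the spread between these libraries, which may be technical: that of the vehicle pairs in the model of all libraries, and the interaction of compound and light in fits within a round.

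The TCA cycle runs in the mitochondrial matrix. Citrate synthase joins acetyl-CoA to oxaloacetate, successive dehydrogenases release carbon dioxide and pass electrons to NADH, and the last steps turn succinate through fumarate and malate back into oxaloacetate. The NADH and reduced flavin feed the respiratory chain, and intermediates leave the cycle for amino acid and lipid synthesis. Several of its enzymes are assemblies of different subunits, each made from its own gene, so that subunits of the same enzyme can be compared.

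The promoters of FH and DLST are shown because these genes stood at opposite ends of the members in 1-S cells. The sequences are those of RefSeq on GRCh38.p14, from 250 bases before to 50 bases after the annotated start, written 5′ to 3′ on the gene's strand. Capitals mark the CCAAT motif on either strand in FH (chr1:241519706-241520005, minus strand) and the ETS motif CCGGAAG on either strand in DLST (chr14:74881666-74881965, plus strand).
FH: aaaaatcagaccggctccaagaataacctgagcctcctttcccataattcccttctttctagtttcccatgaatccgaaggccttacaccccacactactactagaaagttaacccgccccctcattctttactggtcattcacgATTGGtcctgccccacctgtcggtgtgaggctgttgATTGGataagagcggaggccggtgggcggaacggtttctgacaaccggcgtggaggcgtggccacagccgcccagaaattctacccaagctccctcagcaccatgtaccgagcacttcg
DLST: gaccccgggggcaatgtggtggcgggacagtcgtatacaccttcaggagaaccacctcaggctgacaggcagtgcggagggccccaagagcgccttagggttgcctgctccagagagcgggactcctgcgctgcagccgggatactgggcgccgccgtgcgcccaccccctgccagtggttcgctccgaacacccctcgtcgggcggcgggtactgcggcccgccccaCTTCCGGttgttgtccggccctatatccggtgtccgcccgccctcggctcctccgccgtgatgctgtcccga

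All libraries held 15.8 to 22.6 M reads, and each member had between 507 and 6107 reads in every library. The mesenchymal genes VIM, MSN, CD44 and AXL were at 28.3 FPKM or more in every library, while CDH1, ESR1 and PGR were at 0.14 FPKM or less. ERBB2 and EPCAM, listed as low or absent in this line, were not absent: ERBB2 was at 9.78 to 29.2 FPKM, and EPCAM at 2.25 to 5.57 FPKM. PTPRC and ALB, markers of leukocytes and liver, reached at most 0.116 FPKM, and ACTA2, a marker of myofibroblasts, lay between 0.571 and 1.18 FPKM. FPKM is the read count per kilobase of gene and M reads. The gene lengths used by the authors differ between rounds, 1650 bases in round 1 and 4990 in round 2 for MDH1 and 1797 and 2142 for FH, so an FPKM is set only beside others of its round. In these bulk libraries fewer cells and less RNA per cell cannot be told apart.

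FH RNA was lower in 1-S cells, dark or irradiated, and in irradiated 1-SO cells, and OGDH was lower in the same 3 comparisons with vehicle. Of all genes, edgeR called 15%, 13.7% and 7.04% lower in these comparisons, in that order. The OGDH call in irradiated 1-SO cells was lost under DESeq2 and limma. The largest of the fitted FH and OGDH differences was FH in 1-S dark cells, at 49.1% of the vehicle level. Against the vehicle libraries of round 2 alone FH was at 53.1% in 1-S dark and 49.3% in 1-S UV-A. DLST, by contrast, was fitted at 98.1% of vehicle in 1-S dark cells, with a 95% interval from −0.40 to 0.35 on the log2 scale. The model that gave these calls has a term for the round, and without that term 0 members were called in any comparison, beside at most 0.142% of all genes. Reads of the 9 members came to 975 CPM (counts per M reads of the shared genes) in the 1-SO UV-A library of round 1, against 1183 in 1-SO dark, 1175 in vehicle UV-A and 1229 in vehicle dark. In round 2 the sum was 1040 CPM in 1-S UV-A and 934 in 1-S dark, against 1314 in vehicle UV-A and 1290 in vehicle dark.

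**Figure D1:**
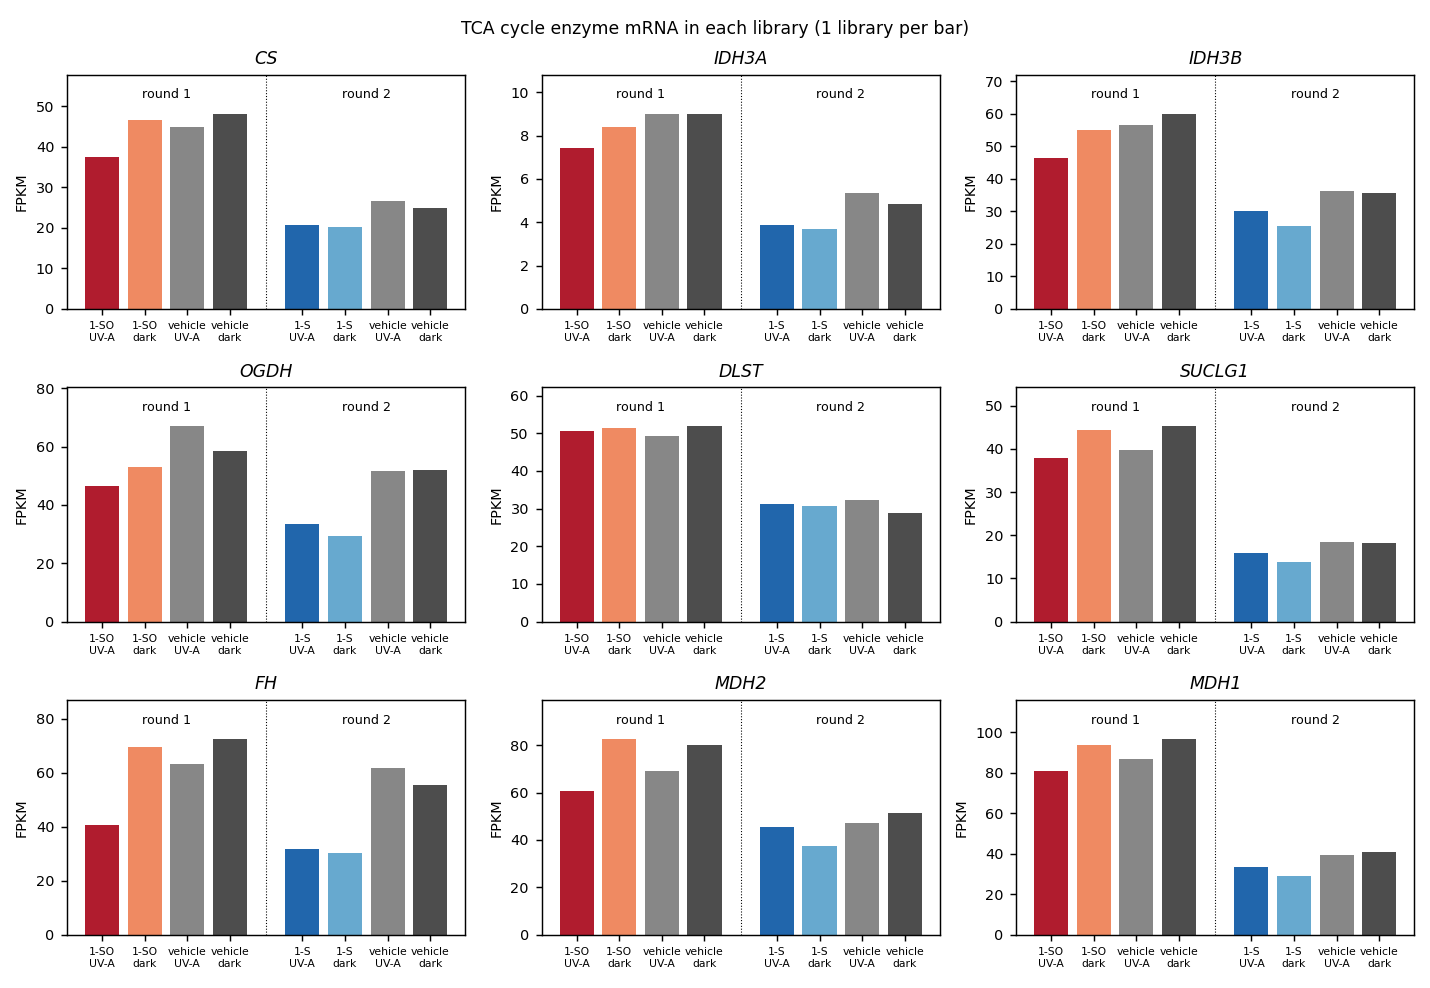
FPKM of the 9 enzymes in each library, 1 bar per library, with round 1 left and round 2 right of the dotted line in each panel. In round 2 both 1-S bars of FH, at 31.7 and 30.1 FPKM, stand below both vehicle bars, at 61.5 and 55.2 FPKM, while the DLST bars of round 2 stay between 28.8 and 32.2 FPKM.

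Citrate synthase (CS, ENSG00000062485, chromosome 12 from 56271699 to 56300392 on the minus strand of GRCh38) opens the cycle. In round 1 it was at 37.4 FPKM in 1-SO UV-A and 46.7 in 1-SO dark, against 44.9 in vehicle UV-A and 48.2 in vehicle dark. In round 2 it was at 20.6 FPKM in 1-S UV-A and 20.3 in 1-S dark, against 26.5 in vehicle UV-A and 24.9 in vehicle dark. The 1-SO UV-A library was the lowest of its round, and both 1-S libraries lay under both vehicle libraries. Such placings of libraries, here and for the members below, were not counted over all genes. With 1-S averaged over round 2, edgeR called 60.1% of all genes in either direction.

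IDH3A and IDH3B encode the alpha and beta subunits of the NAD-dependent isocitrate dehydrogenase, which makes alpha-ketoglutarate. IDH3A (ENSG00000166411) lies on chromosome 15 from 78131498 to 78171949, plus strand, and IDH3B (ENSG00000101365) on chromosome 20 from 2658395 to 2664219, minus strand. IDH3A, the catalytic subunit and the lowest member per length in every library, had 7.44 and 8.42 FPKM in 1-SO UV-A and 1-SO dark, against 8.98 and 9.02 FPKM in vehicle UV-A and vehicle dark. In round 2 IDH3A had 3.89 and 3.67 FPKM in 1-S UV-A and 1-S dark, against 5.36 and 4.85 FPKM in vehicle UV-A and vehicle dark. Both 1-S libraries lay under both vehicle libraries, and in round 1 the 4 libraries were closer together. IDH3B had 46.5 FPKM in 1-SO UV-A and 54.8 in 1-SO dark, against 56.5 in vehicle UV-A and 60.0 in vehicle dark. In round 2 IDH3B had 30.1 FPKM in 1-S UV-A and 25.6 in 1-S dark, against 36.3 in vehicle UV-A and 35.6 in vehicle dark. For both genes the dark 1-S library was the lowest of round 2.

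OGDH is the decarboxylating E1 subunit, and DLST the succinyl-transferring E2 subunit, of the alpha-ketoglutarate dehydrogenase complex. OGDH (ENSG00000105953) lies on chromosome 7 from 44606572 to 44709066 and DLST (ENSG00000119689) on chromosome 14 from 74881891 to 74903745, both on the plus strand. OGDH had 46.6 FPKM in 1-SO UV-A and 53.0 in 1-SO dark, against 66.9 in vehicle UV-A and 58.4 in vehicle dark. In round 2 OGDH had 33.6 FPKM in 1-S UV-A and 29.2 in 1-S dark, against 51.7 in vehicle UV-A and 51.9 in vehicle dark. All 4 compound libraries lay under the vehicle libraries of their round. DLST had 50.7 FPKM in 1-SO UV-A and 51.4 in 1-SO dark, against 49.2 in vehicle UV-A and 51.8 in vehicle dark. In round 2 DLST had 31.3 FPKM in 1-S UV-A and 30.8 in 1-S dark, against 32.2 in vehicle UV-A and 28.8 in vehicle dark. The compound and vehicle libraries of DLST overlapped in both rounds.

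SUCLG1 (ENSG00000163541, chromosome 2 from 84423523 to 84460045, minus strand), the alpha subunit shared by both forms of succinyl-CoA ligase, had 37.8 FPKM in 1-SO UV-A and 44.3 in 1-SO dark, against 39.8 in vehicle UV-A and 45.2 in vehicle dark. In round 2 SUCLG1 had 15.9 FPKM in 1-S UV-A and 13.8 in 1-S dark, against 18.5 in vehicle UV-A and 18.1 in vehicle dark. In round 1 the irradiated libraries of both treatments were the lower ones, and in round 2 the 1-S libraries were. Fumarase (FH, ENSG00000091483, chromosome 1 from 241497603 to 241519761, minus strand), which hydrates fumarate to malate, had 40.5 FPKM in 1-SO UV-A and 69.4 in 1-SO dark, against 63.2 in vehicle UV-A and 72.3 in vehicle dark. In round 2 FH had 31.7 FPKM in 1-S UV-A and 30.1 in 1-S dark, against 61.5 in vehicle UV-A and 55.2 in vehicle dark. The dark 1-SO library lay between the vehicle libraries of its round, whereas the irradiated 1-SO library and both 1-S libraries stood below them.

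MDH2 (ENSG00000146701, chromosome 7 from 76048051 to 76067508, plus strand), the mitochondrial malate dehydrogenase that closes the cycle, had 60.9 FPKM in 1-SO UV-A and 82.6 in 1-SO dark, against 69.4 in vehicle UV-A and 80.3 in vehicle dark. In round 2 MDH2 had 45.5 FPKM in 1-S UV-A and 37.3 in 1-S dark, against 47.2 in vehicle UV-A and 51.3 in vehicle dark. MDH2 was lower in the irradiated library than in the dark one in vehicle of both rounds and in 1-SO, and higher in 1-S. MDH1 (ENSG00000014641, chromosome 2 from 63588609 to 63607197, plus strand), the cytosolic partner of MDH2 in the malate-aspartate shuttle, had 80.8 FPKM in 1-SO UV-A and 93.7 in 1-SO dark, against 86.8 in vehicle UV-A and 96.6 in vehicle dark. In round 2 MDH1 had 33.4 FPKM in 1-S UV-A and 28.8 in 1-S dark, against 39.4 in vehicle UV-A and 40.8 in vehicle dark. MDH1 was the highest of the members per length in each round 1 library. The opposite-strand gene WDPCP, which overlaps MDH1, had 38 to 128 reads, and the pseudogene copies DLSTP1 and FHP1 had 3 to 17 reads and 0 reads, against at least 507 reads of any member.

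With UV-A alone no member passed the test. In vehicle cells the fitted log2 fold changes of UV-A over dark lay between −0.19 (MDH2) and 0.07 (OGDH), with adjusted p = 1 for all 9 members by edgeR's quasi-likelihood test. No member passed (0 of 9, against 0% of all genes tested), 0 members had an unadjusted p under 0.05, and DESeq2 and limma called 0 members. The rounds differed: the ratio of the normalized libraries was below 0 for 8 of 9 members in round 1, with a median of −0.17, and for 2 of 9 in round 2, with a median of 0.05, while 49.7% and 49.5% of all genes were below 0.

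With 1-SO in the dark no member passed the test either. FH was at 69.4 FPKM in 1-SO dark against 72.3 FPKM in vehicle dark of the same round. The fitted log2 fold changes of 1-SO dark over vehicle dark ran from −0.19 (OGDH) to 0.06 (MDH2), with a median of 0.00. Against the dark vehicle library of round 1 alone the median was −0.07, with 8 of 9 members below 0, beside 52.1% of all genes. By edgeR 0 of 9 members and 0% of all genes passed, 0 members had an unadjusted p under 0.05, and DESeq2 and limma called 0 members.

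In irradiated cells FH and OGDH were lower with 1-SO than with vehicle. All 9 members had a fitted log2 fold change below 0, with a median of −0.41, beside a median of 0.01 and 49.3% below 0 for all genes tested. By edgeR 2 of 9 members were lower and 0 higher at an adjusted p under 0.05, against 7.04% of all genes called lower and 4.47% called higher. FH fell by 0.84 ± 0.19 on the log2 scale (SE, 95% interval −1.23 to −0.44, adjusted p = 0.0043), to 56% of the fitted vehicle level, and 748 of the 12696 genes had a lower value. Against the irradiated vehicle library of round 1 alone FH was at −0.72, or 60.6%, and the median of the members was −0.34. OGDH fell by 0.57 ± 0.19 (95% interval −0.96 to −0.18, adjusted p = 0.047). The OGDH call was lost under DESeq2, limma, RLE size factors and no filter on low genes, where FH was still called, beside 4.46%, 10.8%, 10.1% and 5.42% of all genes called in either direction. The values of the others were −0.41 each for CS, IDH3B and IDH3A, −0.31 for MDH2, −0.23 for MDH1 and SUCLG1 and −0.12 for DLST, with adjusted p between 0.15 and 0.74. On the FPKM scale, which is not corrected for library composition, DLST was above the irradiated vehicle library of its round (50.7 against 49.2 FPKM).

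Within cells holding 1-SO, FH and MDH2 were lower after UV-A than in the dark. FH fell by 0.90 ± 0.20 on the log2 scale (95% interval −1.31 to −0.49, adjusted p = 0.0026, edgeR). MDH2 fell by 0.56 ± 0.19 (95% interval −0.96 to −0.17, adjusted p = 0.047), a call that was lost under DESeq2, limma, RLE size factors and no filter, where FH was still called, beside 5.18%, 14.9%, 13.6% and 6.91% of all genes called in either direction. All 9 members lay below 0 with a median of −0.36, beside 49.9% of all genes below 0. Of the 9 members 2 passed, beside 9.21% of all genes called lower. This comparison and that with irradiated vehicle share the 1-SO UV-A library. The difference of the UV-A response in 1-SO from that in vehicle was called for FH, at −0.86 ± 0.24 (95% interval −1.36 to −0.36, adjusted p = 0.039), as for 2.9% of all genes called lower. The other 8 members had interaction values from −0.42 (CS) to −0.17 (DLST) and did not pass. The FH interaction was not called by DESeq2 (adjusted p = 0.29), limma (adjusted p = 0.091) or with RLE size factors. UV-A over dark in vehicle gave FH −0.26 in round 1 and 0.17 in round 2. With a vehicle library left out, the FH interaction ranged from −1.08 to −0.64, with no test.

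In the dark, 6 of the 9 members were lower with 1-S than with vehicle: FH, OGDH, MDH1, IDH3B, MDH2 and SUCLG1. The 6 calls, with 0 members higher, stand beside 15% of all genes called lower and 15.9% called higher by edgeR. FH fell by 1.03 ± 0.19 on the log2 scale (95% interval −1.42 to −0.63, adjusted p = 0.00022), and 719 of the 12696 genes had a lower value. OGDH fell by 0.84 ± 0.19, to 55.8% of vehicle (adjusted p = 0.0014). MDH1, IDH3B, MDH2 and SUCLG1 had log2 fold changes of −0.59, −0.56, −0.55 and −0.51, with adjusted p from 0.016 to 0.043. IDH3A, at −0.50 ± 0.22 (adjusted p = 0.087), and CS, at −0.40 ± 0.18 (adjusted p = 0.094), did not pass. DLST had a value of −0.03 ± 0.18 (adjusted p = 0.93), and one of 0.05 against the dark vehicle library of its own round. DESeq2 called FH and OGDH alone among the members, beside 13.3% of all genes in either direction, and limma called those with IDH3B and MDH1, beside 26.7%.

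Under UV-A, FH and OGDH were lower with 1-S than with vehicle, 2 of 9 members and 0 higher, beside 13.7% of all genes called lower. FH fell by 0.92 ± 0.19 on the log2 scale (95% interval −1.31 to −0.53, adjusted p = 6e-04, edgeR). Without the round 2 vehicle UV-A library the FH value was −0.59, with no test. OGDH fell by 0.72 ± 0.19 (95% interval −1.11 to −0.33, adjusted p = 0.0058). DESeq2 and limma called the same 2 members, beside 13% and 24.2% of all genes in either direction. The other 7 members had values from −0.47 (IDH3A) to −0.03 (DLST), with adjusted p of at least 0.12. Within cells holding 1-S, UV-A over dark gave values above 0 for all 9 members, from 0.01 to 0.28 (MDH2, 95% interval −0.12 to 0.67). Values in that comparison were above 0 for 6473 of the 12696 genes tested. By edgeR 0 of 9 members and 0% of all genes passed there, 0 members had an unadjusted p under 0.05, and DESeq2 and limma called 0 members. The difference of the UV-A response in 1-S from that in vehicle was called for 0 members and 0% of all genes, with values from −0.00 to 0.47, 0 members at an unadjusted p under 0.05 and 0 members by DESeq2 or limma.

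Averaged over light and dark within round 2, where the 4 libraries gave a smaller spread, 8 of 9 members were lower with 1-S, beside 30.1% of all genes called lower by edgeR. FH fell by 0.97 ± 0.09 on the log2 scale (adjusted p = 3.8e-19) and OGDH by 0.78 ± 0.09 (adjusted p = 2.9e-14). IDH3A, IDH3B, MDH1, CS, SUCLG1 and MDH2 had values from −0.49 (IDH3A) to −0.31 (MDH2), with an adjusted p of at most 0.0013. DLST had a value of −0.03 ± 0.09 (95% interval −0.20 to 0.14, adjusted p = 0.8). DESeq2 called the same 8 members, beside 43.3% of all genes in either direction, and limma 7 of them, without MDH2, beside 48.5%. This fit rests on 1 residual degree of freedom, the interaction of compound and light. Its small p-values draw on a spread shared over all genes, weighted as 138 prior degrees of freedom, and not on 1 gene's 4 libraries alone. In round 1 the same average for 1-SO over vehicle called 0 of 9 members and 0% of all genes, with FH at −0.40 ± 0.18 (adjusted p = 0.81), 1 member at an unadjusted p under 0.05, and 0 members by DESeq2 or limma. UV-A over dark averaged within round 1 called 0 of 9 members, beside 4.15% of all genes in either direction, with FH at −0.58 ± 0.18 (adjusted p = 0.08), 2 members at an unadjusted p under 0.05 and 0 members by DESeq2 or limma. UV-A over dark within round 2 called 0 of 9 members, beside 0.425% of all genes in either direction, with 0 members at an unadjusted p under 0.05 and 0 by DESeq2 or limma.

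**Figure D2:**
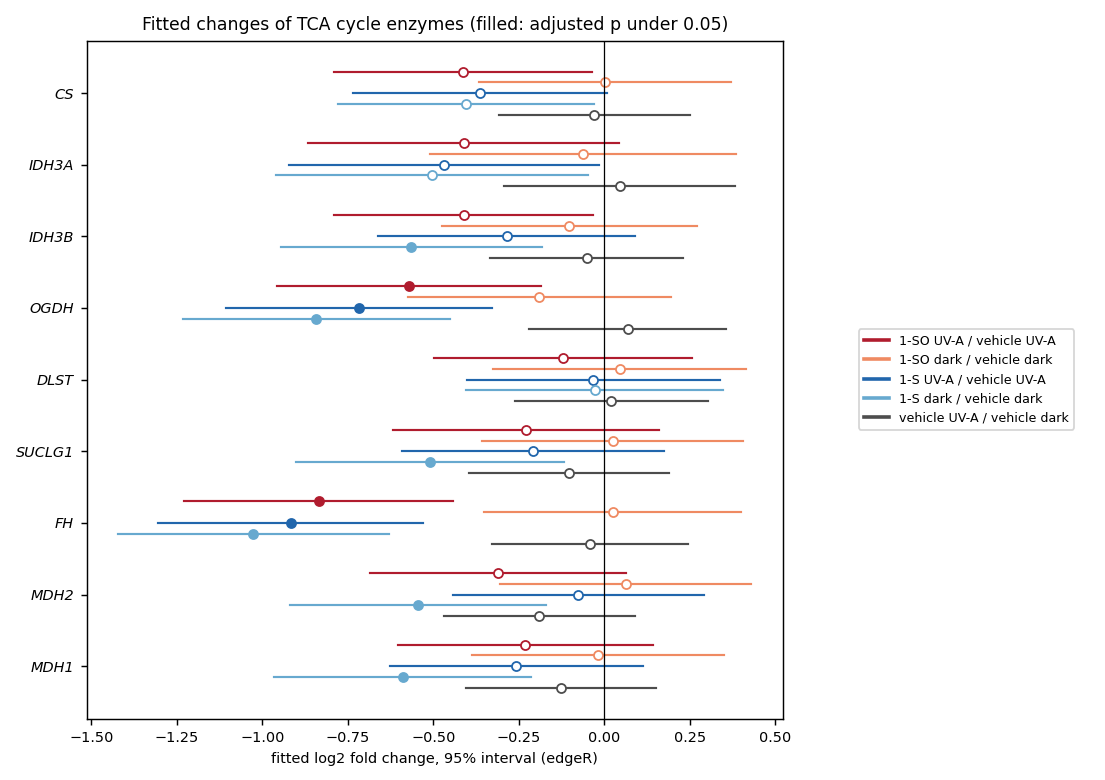
Fitted log2 fold changes (x axis, with 95% intervals from edgeR) of the 9 enzymes in 5 comparisons, filled where the adjusted p is under 0.05. FH is filled in 3 comparisons, at −0.84, −0.92 and −1.03, and lies near 0 for 1-SO in the dark and for UV-A in vehicle, while DLST is filled in none.

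The compounds were compared at the same dose and time in the dark and under UV-A, 2 comparisons for each member with p adjusted over all genes, each compound being set against vehicle first. In the dark FH differed, with 1-SO higher than 1-S by 1.05 ± 0.24 on the log2 scale (95% interval 0.55 to 1.55, adjusted p = 0.0037, edgeR), 1 of 9 members beside 8.4% of all genes called higher. That call was lost under DESeq2 (adjusted p = 0.054). The other 8 members all had values above 0, from 0.07 (DLST, 95% interval −0.41 to 0.56) to 0.65 (OGDH, 95% interval 0.15 to 1.15, adjusted p = 0.065), and did not pass. Values in the dark were above 0 for 6351 of the 12696 genes tested. Under UV-A no difference between the compounds was called, 0 of 9 beside 3.55% of all genes in either direction, with 0 members at an unadjusted p under 0.05 and 0 by DESeq2 or limma. The UV-A values ran from −0.24 (MDH2, 95% interval −0.72 to 0.25) to 0.15 (OGDH, 95% interval −0.35 to 0.65), with FH at 0.08 (95% interval −0.42 to 0.58), so differences of up to 0.72 on the log2 scale lie within the intervals. These comparisons set round 1 at passage 8 against round 2 at passages 32 to 34.

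A list of 9 further TCA cycle genes held the partner subunits IDH3G, DLD, SUCLG2 and SUCLA2, the separate enzyme IDH2 and the succinate dehydrogenase subunits SDHA, SDHB, SDHC and SDHD. For 1-SO with UV-A over vehicle UV-A 4 of the 9 were lower and 0 higher by edgeR, beside 7.04% of all genes called lower, with a list median of −0.48 on the log2 scale. DESeq2 called 2 of the 9 and limma 3, beside 4.46% and 10.8% of all genes in either direction. IDH3G, the regulatory gamma subunit of the enzyme of IDH3A and IDH3B, had 15.1 FPKM in 1-SO UV-A and 27.6 in 1-SO dark, against 30.4 in vehicle UV-A and 27.7 in vehicle dark. It fell by 1.12 on the log2 scale, beside −0.41 for its partner subunits. SUCLG2, the GTP-specific beta partner of SUCLG1, had 14.8 FPKM in 1-SO UV-A and 32.1 in 1-SO dark, against 27.0 in vehicle UV-A and 35.6 in vehicle dark, and fell by 1.02. DLD, the E3 subunit shared by the alpha-ketoglutarate and pyruvate dehydrogenase complexes, fell by 0.69. IDH2, the mitochondrial NADP-dependent isocitrate dehydrogenase, was the fourth, at −0.83. For UV-A over dark in 1-SO cells 4 of the 9 were also lower and 0 higher by edgeR, beside 9.21% of all genes called lower. SUCLG2 was at −1.25, IDH3G at −0.99 and DLD at −0.69. There DESeq2 called 1 of the 9 and limma 3, beside 5.18% and 14.9% of all genes in either direction.

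For 1-S dark over vehicle dark 6 of the 9 were lower and 0 higher by edgeR, beside 15% of all genes called lower. DESeq2 called 4 of the 9 and limma 6, beside 13.3% and 26.7% of all genes in either direction. The list median was −0.69 on the log2 scale, beside −0.55 for the 9 members and 0.00 for all genes. In round 2 IDH3G had 9.46 FPKM in 1-S UV-A and 7.35 in 1-S dark, against 17.7 in vehicle UV-A and 15.4 in vehicle dark, and its fitted change in the dark was −1.15. SUCLG2 had 16.1 FPKM in 1-S UV-A and 14.9 in 1-S dark, against 22.9 in vehicle UV-A and 26.5 in vehicle dark, with a change in the dark of −0.95. DLD had a change of −0.85 and SUCLA2, the ATP-specific beta subunit, one of −0.89. SDHC and SDHA, subunits of succinate dehydrogenase, had changes of −0.69 and −0.58. For 1-S UV-A over vehicle UV-A 4 of the 9 were lower and 0 higher by edgeR, beside 13.7% of all genes called lower. DESeq2 called 2 of the 9 and limma 3 there, beside 13% and 24.2% of all genes in either direction. The average over round 2 called 8 of the 9 lower, all but SDHB, beside 30.1% of all genes. For 1-SO in the dark and for UV-A in vehicle 0 of the 9 were called by edgeR, DESeq2 or limma, with 0 and 1 genes at an unadjusted p under 0.05. For 1-SO over 1-S in the dark 4 of the 9 were higher by edgeR, among them IDH3G at 1.16, beside 8.4% of all genes called higher. In either direction limma called 4 and DESeq2 0, beside 13.9% and 5.63% of all genes. Under UV-A 0 of the 9 were called by edgeR, DESeq2 or limma, beside 3.55%, 1.19% and 2.56% of all genes, with 1 of the 9 at an unadjusted p under 0.05.

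**Figure D3:**
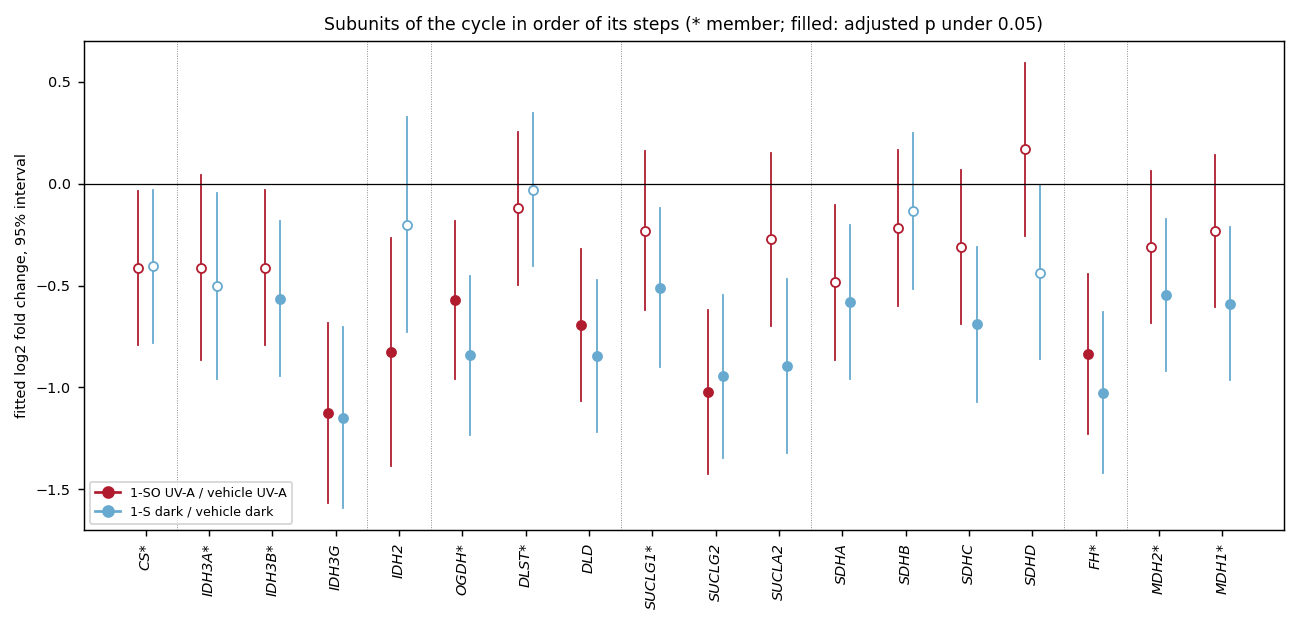
Fitted log2 fold changes (y axis, 95% intervals) of all 18 TCA cycle genes counted, in the order of the cycle's steps, for 1-SO UV-A over vehicle UV-A and 1-S dark over vehicle dark, filled where the adjusted p is under 0.05. Within the alpha-ketoglutarate dehydrogenase complex OGDH and DLD are filled in both comparisons, at −0.57 and −0.69 for 1-SO and −0.84 and −0.85 for 1-S, while DLST lies at −0.12 and −0.03.

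The pyruvate dehydrogenase complex makes the acetyl-CoA that CS uses, and its kinases and phosphatases switch it off and on. Of the 12 genes of this list 1 was higher and 1 lower for 1-SO with UV-A over vehicle UV-A, beside 4.47% of all genes called higher and 7.04% lower, with a list median of −0.01 on the log2 scale. DESeq2 and limma called 1 of the 12 each, beside 4.46% and 10.8% of all genes in either direction. PDHB, the beta subunit of the E1 enzyme, had 16.2 FPKM in 1-SO UV-A and 27.8 in 1-SO dark, against 26.1 in vehicle UV-A and 27.8 in vehicle dark, and fell by 0.84. PDK4, a kinase that inactivates the complex, had 1.91 FPKM in 1-SO UV-A and 1.09 in 1-SO dark, against 1.01 in vehicle UV-A and 0.625 in vehicle dark. Its fitted change was 1.24 (adjusted p = 0.021), while the ratio of the libraries of round 1 alone was 0.85. UV-A over dark in vehicle was 0.62 in round 1 and −0.83 in round 2. In 1-S cells PDK4 stood much higher, at 9.82 FPKM in 1-S UV-A and 9.92 in 1-S dark, against 0.977 in vehicle UV-A and 1.76 in vehicle dark. Its changes were 2.93 under UV-A and 2.71 in the dark. For 1-S in the dark 2 of the 12 genes were higher (PDK4 and, at 0.48, the phosphatase PDP1) and 2 lower (DLAT, the E2 subunit, at −0.84, and PDHB at −0.80), close to the shares of all genes, 15.9% higher and 15% lower. DESeq2 called 3 of the 12 and limma 4, beside 13.3% and 26.7% of all genes in either direction. Between the compounds PDK4 was lower with 1-SO than with 1-S, with differences of −2.40 in the dark and −1.69 under UV-A. These differences also set round 1 against round 2. By edgeR 2 of the 12 were higher and 1 lower with 1-SO in the dark, beside 8.4% and 8.78% of all genes. In irradiated cells 0 were higher and 1 lower, beside 1.28% and 2.27%. Under UV-A DESeq2 called 0 of the 12, beside 1.19% of all genes.

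The list of 12 enzymes that bring carbon into the cycle or draw it off had 1 gene higher and 4 lower for 1-SO with UV-A over vehicle UV-A, beside 4.47% and 7.04% of all genes. In either direction DESeq2 called 3 of the 12 and limma 5, beside 4.46% and 10.8% of all genes. PCK2, the mitochondrial phosphoenolpyruvate carboxykinase, had 48.1 FPKM in 1-SO UV-A and 12 in 1-SO dark, against 12.5 in vehicle UV-A and 10.7 in vehicle dark, a fitted change of 1.94. GOT2 (mitochondrial aspartate aminotransferase), ME3 (a mitochondrial malic enzyme) and ACO1 (cytosolic aconitase) had changes of −0.75, −0.93 and −0.73. The pyruvate carboxylase gene PC was at −0.72. For UV-A over dark in 1-SO cells 2 of the 12 were higher and 4 lower, beside 5.57% and 9.21% of all genes. PCK2 was at 1.88, ME3 at −1.13 and ACO1 at −0.82. In either direction DESeq2 called 2 of the 12 there and limma 6, beside 5.18% and 14.9% of all genes.

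In 1-S cells 4 of the 12 genes were higher and 7 lower in the dark, beside 15.9% and 15% of all genes, and 4 higher and 3 lower under UV-A, beside 13.8% and 13.7%. In either direction DESeq2 called 5 of the 12 for dark 1-S and 4 for irradiated 1-S, beside 13.3% and 13% of all genes. Limma called 9 and 6, beside 26.7% and 24.2%. PCK2 had 22.5 FPKM in 1-S UV-A and 20.2 in 1-S dark, against 5.30 in vehicle UV-A and 6.01 in vehicle dark, with changes of 1.94 under UV-A and 1.79 in the dark. GOT1, the cytosolic aspartate aminotransferase, had 83.2 FPKM in 1-S UV-A and 77.0 in 1-S dark, against 37.6 in vehicle UV-A and 36.1 in vehicle dark. ACO1 had changes of −0.87 under UV-A and −1.04 in the dark. Among the 18 TCA cycle genes counted, which include the cytosolic MDH1 and the separate enzyme IDH2, 0 were called higher for 1-S over vehicle in the dark or under UV-A. For 1-SO in the dark and for UV-A in vehicle 0 of the 12 genes were called in this list and 0 of the 12 in the pyruvate dehydrogenase list by edgeR, DESeq2 or limma, with 0 genes at an unadjusted p under 0.05.

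**Figure D4:**
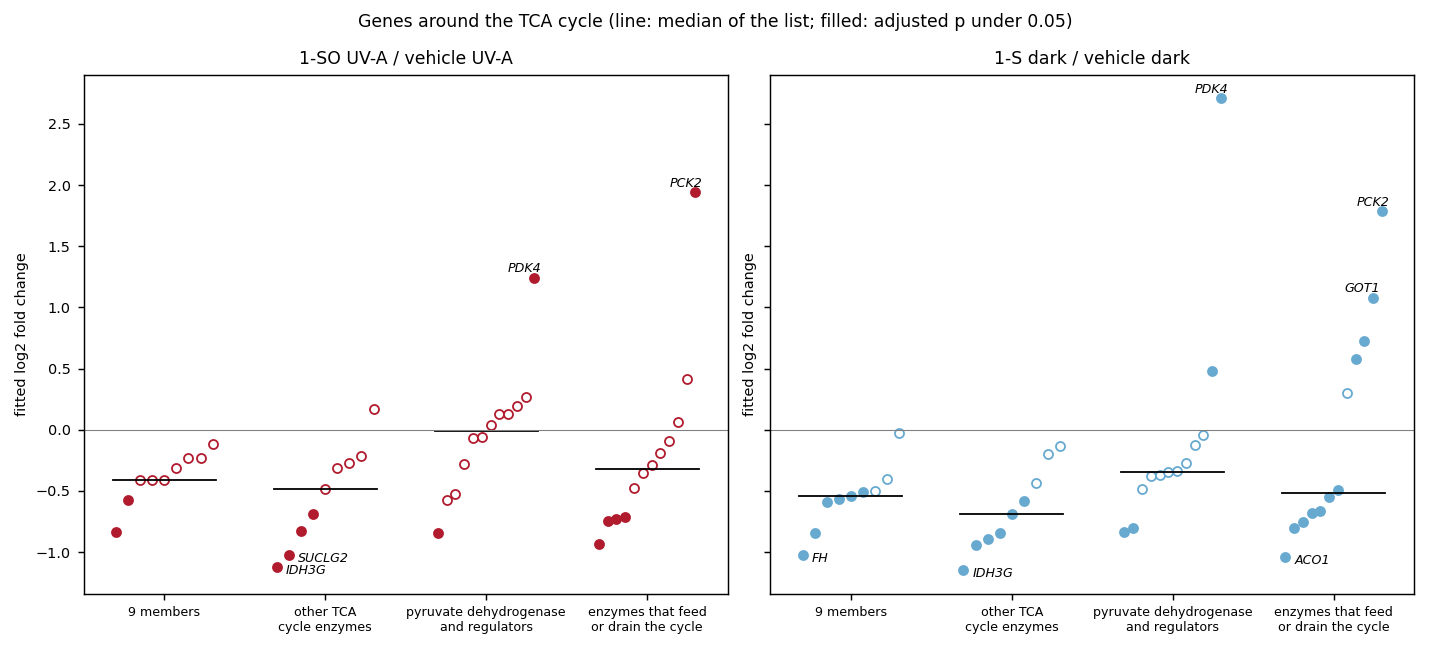
Fitted log2 fold changes (y axis) of the members and of the 3 lists, 1 point per gene, with a line at each list's median and filled points for an adjusted p under 0.05, for 1-SO UV-A over vehicle UV-A (left) and 1-S dark over vehicle dark (right). The members lie below 0 in both panels, with medians of −0.41 and −0.55, while PCK2 lies at 1.94 and 1.79 and PDK4 at 1.24 and 2.71. Of all genes tested, which are not drawn, 49.3% and 49.8% were below 0.

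The deposited tables of the authors' own comparisons, which set 1 library against 1 library, called 0 of 9 members at an adjusted p under 0.05 in any of 9 tables, beside at most 1.09% of a table's genes called lower. In the authors' deposited table for 1-S dark over vehicle dark FH had a log2 fold change of −0.997 with an adjusted p of 0.4, and all 9 members were below 0, beside 0.421% of its genes called lower. In the authors' deposited table for 1-SO UV-A over vehicle UV-A FH had −0.72 and was not called, and all 9 members were below 0. By the ratio of the normalized libraries, 49.3% and 49.4% of all genes tested were below 0 in these 2 pairs. In the authors' comparisons 8 of 9 members were also below 0 for 1-SO dark over vehicle dark. The same held for 8 of 9 in vehicle UV-A over vehicle dark of round 1, and for 2 of 9 in round 2. In the authors' deposited table for 1-S UV-A over 1-S dark 0 of 9 members were below 0, beside 48.7% of all genes tested by the ratio of the normalized libraries.

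The members' mean profile was compared with 11152 protein-coding genes over the 8 libraries, each centred within its round. Among the closest were XRCC6, which encodes a subunit of the Ku DNA-binding heterodimer, POLDIP3, URB2 and XRN2, a nuclear 5′ to 3′ exoribonuclease. XRCC6 had 130 FPKM in 1-SO UV-A and 180 in 1-SO dark, against 168 in vehicle UV-A and 187 in vehicle dark. Profiles of 1670 of the 11152 genes, 15%, lay as close as a Pearson coefficient over 0.9, so a close profile was common. The points share library and depth, and the likeness is given as a description.

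Of the 9 member promoters in the RefSeq table (8 members, with 2 promoters for MDH1 and none for OGDH), 4 held CCAAT on either strand: FH, which holds it at 2 places, CS, SUCLG1 and 1 of the MDH1 promoters. CCAAT was in 34.6% of all 35116 promoters of the same length. The GC box GGGCGG was in 4 of the 9 (FH, CS, DLST and IDH3A), against 45% of all. CCGGAAG was in 3 of the 9 (MDH2, DLST and IDH3B), against 10.3%, and TGCGCA, the core of the NRF1 motif, in 2 of the 9 (IDH3A and IDH3B), against 8.24%. Of the members lower in 1-S dark cells, FH, SUCLG1 and 1 of the MDH1 promoters held CCAAT, and FH the GC box. MDH2 and IDH3B held CCGGAAG, and IDH3B also TGCGCA. The DLST promoter held the GC box and CCGGAAG, without CCAAT or TGCGCA. Any link between motif and change was not tested. OGDH, also lower in 1-S dark cells, was not searched for any motif. The motifs TCAAGGTCA, AAGATGGCG, CACGTG, TGACGTCA and TGATGNAAN, searched on both strands, were in 0 of the 9 windows, against 0.353%, 1.75%, 7.26%, 1.85% and 3.61% of all. The 300 bases of FH were 54% G or C and those of DLST 69.7%, against a median of 58.7% for all promoters.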

How the data were processed

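RNA of 8 libraries was measured as read counts per gene, which the authors deposited as whole numbers, not normalized, per the file headers. The FPKM values were deposited by the authors and were checked against those counts, gene lengths and library totals. The authors' deposited comparison tables hold log2 fold changes and p-values per the file headers. The submitters' processing notes name TopHat, STAR 2.5, HTSeq 0.6.1, edgeR 3.16.5, DESeq2 and STAR-Fusion, with builds hg19 and hg38. Their roles, and whether counting used strand, are not given in the sources used here. Poly-T beads selected the RNA, per the labels' protocols. Round 2 coordinates are GRCh38. Columns without a sample numbered 0.

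Genes reaching an FPKM of 1 in 2 or more libraries were tested (12696 of 45341 shared identifiers, 27603 with a read). edgeR 4.0.16 in R 4.3.3 fitted 1 quasi-likelihood model to all libraries, with TMM factors within rounds and terms for round, light in vehicle and each compound group, leaving 1 residual degree of freedom, and the vehicle's light response is shared by the rounds. Rounds were also fitted alone, with additive light and compound terms. Each fit borrowed spread across genes, as 26.0 prior degrees of freedom for all libraries, 12.7 for round 1 and 138 for round 2. Benjamini-Hochberg adjustment ran over all genes, with calls at 0.05. The fits of 1-SO UV-A over vehicle UV-A and of 1-SO averaged in round 1 were also run on simulated data. Those data had no round effect, so they do not test the round term or the factors within rounds. DESeq2 1.42.0 and limma 3.58.1, the latter on log2(FPKM + 1), were alternatives, with RLE size factors, no filter, no round term and leaving out vehicle libraries. Libraries of 15.8 to 22.6 M reads put a count of 0 at a limit of 3 reads, and such limits cover counting error only. The round is named in the titles, and same-round vehicle libraries deviated together (r = 0.786 across 12491 genes), so rounds pair the libraries. From each list the called genes with the smallest p, up to 3 a comparison, were named; IDH2, SUCLA2, SDHC, SDHA, PDP1 and PC were added after their values were seen. Some genes are not reported here. Members and lists were chosen with earlier results of these data known.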

Additional observations from a re-analysis of the deposited data

Results flagged for a closer look

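The results flagged here number 6, each an effect that differed between groups by the test of the difference itself (edgeR). Of these, 5 are differences of the UV-A response in 1-SO cells from that in vehicle cells, on the log2 scale: FH at −0.86, IDH3G at −1.14, SUCLG2 at −0.92, PDHB at −0.89 and PCK2 at 1.88. The last is FH in the dark, where the 1-SO change over vehicle exceeded the 1-S change over vehicle by 1.05. Each rests on 1 library per compound group. The 6 leave out list genes that edgeR called for 1-SO over 1-S. In the dark 4 of the 9 further TCA cycle genes were higher. The pyruvate dehydrogenase list had 2 higher and 1 lower, and the enzymes that feed or drain the cycle 2 higher and 3 lower. Of all genes 8.4% were higher and 8.78% lower. Under UV-A the latter 2 lists had 1 and 2 lower, beside 2.27% of all genes, where DESeq2 called 0. DESeq2 and limma did not call the FH difference of the UV-A response, and DESeq2 did not call the FH difference in the dark. Of the 9 further TCA cycle genes, where edgeR called 2, DESeq2 called 0 differences of the UV-A response and limma 1. Of the 12 genes of the pyruvate dehydrogenase list, where edgeR called 1, both called 0. Of all genes, edgeR called 4.37% in either direction for this difference, DESeq2 1.78% and limma 3.39%. No group had the 4 libraries needed to look for a library far from its group.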

How the results depend on the processing

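Of the 9 members, the 2 called for 1-SO UV-A over vehicle UV-A became 1 under RLE size factors, no filter on low genes, DESeq2 and limma, and the 2 for UV-A in 1-SO became 1 under the same settings, FH in each case. The 6 called for 1-S in the dark became 2 under DESeq2 and 4 under limma. The 1 call of the UV-A by 1-SO interaction became 0 under RLE, DESeq2 and limma, and the 1 call of 1-SO over 1-S in the dark became 0 under DESeq2. UV-A averaged within round 1 had 0 calls, and 1 (FH) with no filter. Without the round block, which leaves the differences between rounds in the error, 0 members were called in any comparison of the 8-library model, and at most 0.142% of all genes; the pairing comes from the round in the titles. No value that passed the test changed sign in any setting run. Of the values that did not pass, DESeq2 changed the sign of 1 and limma of 6 (135 values each in all), and the library of the same round of 5 (54 in all). Leaving out a vehicle library changed 10 to 16 signs of 99, no round block 4 of 99 and no filter 2 of 135. Leaving out a vehicle library left no residual degrees of freedom, so those values carry no test: FH ranged from −1.15 to −0.72 for 1-SO UV-A, −1.35 to −0.91 for 1-S dark and −1.03 to −0.59 for 1-S UV-A. For the fits within rounds no paired analysis was possible because each group has 1 library in a round, and no library could be left out. Counts over all genes changed too. DESeq2 called 489 genes in place of 1461 for 1-SO UV-A, 594 in place of 1876 for UV-A in 1-SO, 1596 in place of 3926 for 1-S dark, 1493 in place of 3487 for 1-S UV-A, 156 in place of 555 for the interaction and 646 in place of 2182 for 1-SO over 1-S in the dark. FPKM scaling moved the median of all genes by up to 0.13 on the log2 scale in comparisons reported here, relative to TMM. With 1 library per compound group, what a second library of it would give is not shown.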
